A study of Mus musculus with 7 samples.

Results

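Blood and immune cells enter the embryonic gut from outside it, and the 6 genes described here, Ptprc, Runx1, Spi1, Ikzf1, Csf1r and Cd68, are genes by which that lineage is known. They were followed in 7 lists of ATAC-seq peaks, which mark stretches of open chromatin, from mouse embryonic stomach and gut. Overlapping peaks of the 7 lists were merged into 326695 regions, and a region was given to the protein-coding gene whose body lay nearest to it within 100 kb in the mm10 annotation. The 6 genes were taken by name, with no threshold on their values, although earlier results of these data were known. They received 142 regions, 0.0435% of the total, of the 264688 that were given to any of 20529 genes.

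Each group had 1 library, so no difference between groups has a replicate check and none was tested. The library labelled as Sox2 KO stomach at E16 is called the KO library below. For it the sources used here give no isolation, strain, Cre driver or deleted stretch. Sox2 encodes a factor that foregut epithelium depends on. At E16 there were also 4 libraries from ShhCre; R26YFP/+ embryos, in which a recombinase driven by the Shh gene, active in gut epithelium, marks cells with YFP. Forestomach epithelium was detached with dispase and digested with collagenase, hindstomach epithelium was loosened in 10 mM EDTA, and proximal small intestine (called E16 intestine) and colon epithelium in 5 mM EDTA. At E13 there were stomach and intestine from the same cross, digested whole with trypsin and sorted for YFP, with 50000 cells taken from pooled embryos. The way of isolation therefore changed with age and with organ, and these cannot be told apart here.

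The lists held between 81179 peaks (E13 intestine) and 135743 peaks (colon) on chromosomes 1 to 19 and X, with median widths between 108 and 178 bp. They carry no read count or height, so depth is unknown, and shares below have 95% Wilson intervals that cover counting error only. Of 9 epithelial genes with a promoter window, such as Krt18, Cldn4 and Elf3, 6 had a peak there in colon, 8 in forestomach, hindstomach and E16 intestine, and 9 in the KO library and both E13 libraries. Epcam was the gene without a peak in forestomach, hindstomach and E16 intestine, and colon lacked Epcam, Krt8 and Spint1. Sox2 had a peak in its promoter window in all 7 libraries, and 1 peak in its gene body in the KO library, against 2 in hindstomach and 1 in forestomach. Without the deleted stretch, this does not check the KO label.

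Blood cells arise in the embryo from endothelium that turns on RUNX1, a DNA-binding factor without which definitive blood stem cells do not form. SPI1 (PU.1, an ETS-family factor that binds a GGAA core) then directs myeloid and B-lymphoid fates, and IKZF1 (Ikaros, a zinc-finger factor) lymphoid fates. CSF1R is the receptor for colony stimulating factor 1, on which macrophages depend, CD68 is a glycoprotein of macrophage endosomes and lysosomes, and PTPRC (CD45) is a tyrosine phosphatase on the surface of nearly all nucleated blood cells. RUNX1 is also made in some epithelia, such as that of the hair follicle. In a bulk library, more cells of a type and more open chromatin per cell cannot be told apart.

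Promoter sequences were available from RefSeq (GRCm38.p6) for 4 of the 6 genes, in 7 windows that run from 250 bases before to 50 bases after an annotated start. The 5 windows printed here are those on which the promoter results turn: the Ptprc window that no library opens, the pair of Runx1 promoters that differ, and the windows of Ikzf1 and Cd68 that were open in some libraries only. They are Ptprc (chr1:138175256-138175555, minus strand), the distal and the proximal start of Runx1 (chr16:92826025-92826324 and chr16:92697280-92697579, minus strand), the first of the starts of Ikzf1 (chr11:11685675-11685974, plus strand) and Cd68 (chr11:69666121-69666420, minus strand). Each is written 5′ to 3′ along its gene, with capitals on matches to AGGAAG (the ETS and PU.1 core), TGTGGT (RUNX) and TGANTCA (AP-1) on either strand.
Ptprc: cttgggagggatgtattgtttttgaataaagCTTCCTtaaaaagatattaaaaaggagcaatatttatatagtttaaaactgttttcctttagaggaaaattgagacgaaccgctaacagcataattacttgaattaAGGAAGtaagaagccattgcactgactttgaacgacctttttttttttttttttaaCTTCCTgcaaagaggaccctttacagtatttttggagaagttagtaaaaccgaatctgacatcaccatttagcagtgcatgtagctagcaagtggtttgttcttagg
Runx1 distal: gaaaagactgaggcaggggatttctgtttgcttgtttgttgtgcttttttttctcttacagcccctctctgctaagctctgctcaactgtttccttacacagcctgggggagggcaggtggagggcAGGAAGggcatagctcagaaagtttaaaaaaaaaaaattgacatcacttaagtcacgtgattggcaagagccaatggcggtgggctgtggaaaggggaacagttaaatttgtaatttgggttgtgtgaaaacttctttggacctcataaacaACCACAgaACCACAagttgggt
Runx1 proximal: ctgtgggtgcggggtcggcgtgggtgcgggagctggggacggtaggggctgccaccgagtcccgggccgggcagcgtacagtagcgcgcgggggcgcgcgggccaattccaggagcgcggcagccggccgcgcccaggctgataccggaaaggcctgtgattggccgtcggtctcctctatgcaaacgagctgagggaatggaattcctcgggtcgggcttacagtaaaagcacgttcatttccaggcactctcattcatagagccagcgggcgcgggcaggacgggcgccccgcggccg
Ikzf1 first: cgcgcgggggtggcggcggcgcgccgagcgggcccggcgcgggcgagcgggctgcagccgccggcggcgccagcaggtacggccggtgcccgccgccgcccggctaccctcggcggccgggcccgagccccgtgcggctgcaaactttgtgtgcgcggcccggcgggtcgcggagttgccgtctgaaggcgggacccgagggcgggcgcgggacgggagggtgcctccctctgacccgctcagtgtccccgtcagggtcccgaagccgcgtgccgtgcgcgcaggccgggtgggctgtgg
Cd68: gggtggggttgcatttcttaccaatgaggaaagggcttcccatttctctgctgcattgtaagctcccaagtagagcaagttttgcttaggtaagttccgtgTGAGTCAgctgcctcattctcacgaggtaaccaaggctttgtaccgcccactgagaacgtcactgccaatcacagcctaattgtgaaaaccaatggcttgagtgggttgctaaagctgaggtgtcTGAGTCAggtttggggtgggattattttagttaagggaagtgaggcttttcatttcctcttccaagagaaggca

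The Ptprc window is poor in G and C (33.7%) and holds AGGAAG 3 times, a motif found in 34.1% of all 21045 windows. The distal Runx1 window holds AGGAAG once and TGTGGT 2 times, side by side after the start, and 14.7% of windows hold TGTGGT. The proximal Runx1 window has 69% G and C and none of the 3 motifs. The first Ikzf1 window has 81.3% G and C, more than 99.2% of windows, and again none of the 3, but 2 matches to GGGCGG (the SP and KLF box, in 46.7% of windows). The Cd68 window holds TGANTCA 2 times, at −149 and −24 from the start, a motif of 7.04% of windows. These matches describe the letters alone.

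A peak lay in a promoter window of 3 of the 4 genes in the KO library and of 2 of the 4 in each of the other 6 libraries. Over all 17274 genes with a window this share was 64.3% in the KO library, 50.4% in forestomach, 54.1% in hindstomach, 43.4% in colon, 47.3% in E16 intestine, 59.9% in E13 stomach and 56.6% in E13 intestine. Counting any library it was 3 of the 4, against 67.4% of all genes. With 4 genes no difference from these shares can be read, but which windows were open differed between libraries.

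**Figure D1:**
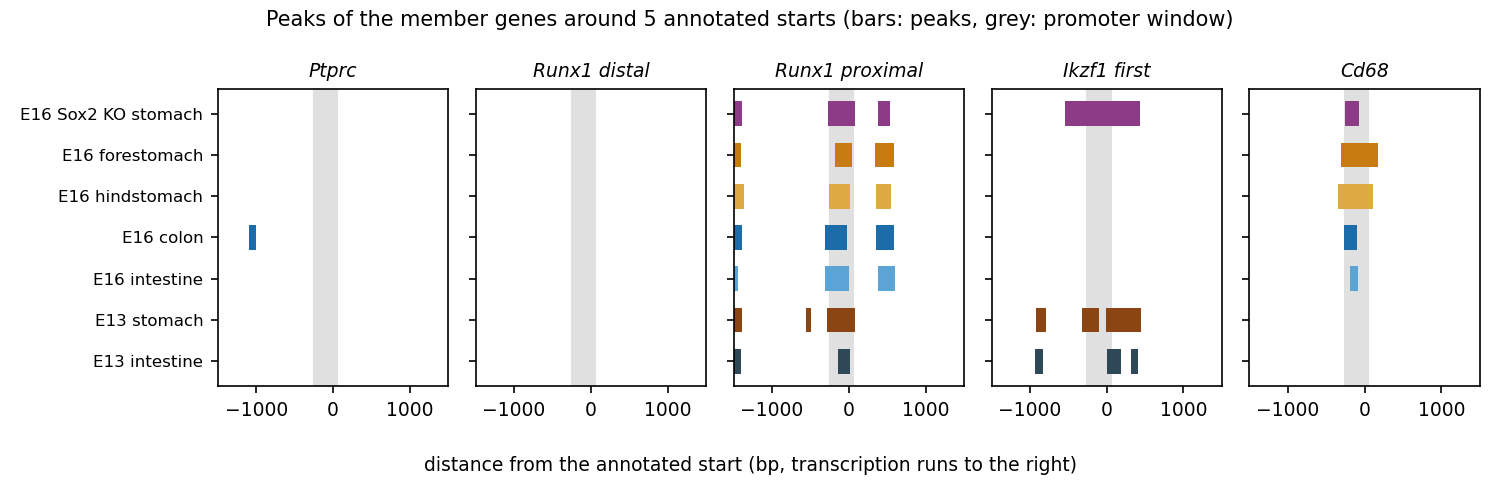
Peaks of the member genes within 1500 bp of 5 annotated starts, in 7 rows, 1 per library. The x axis is the distance from the start in bp along the gene, bars are peaks and the grey band is the promoter window. The proximal Runx1 band is covered in all 7 rows, the Ptprc and distal Runx1 bands in none, the Ikzf1 band in the KO and both E13 rows, and the Cd68 band in the 5 E16 rows.

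The proximal Runx1 promoter had a peak in all 7 libraries, with widths of 344 bp in the KO library, 224 bp in forestomach, 268 bp in hindstomach, 284 bp in colon, 322 bp in E16 intestine, 357 bp in E13 stomach and 159 bp in E13 intestine. Of all windows, 34.5% were open in all 7 libraries. The distal Runx1 promoter, the start that comes into use in definitive blood cells, had a peak in none. The peaks nearest to it lay between 1.65 kb away in colon and 2.07 kb away in E13 intestine. In the KO library and both E13 libraries this nearest peak was upstream of the start (between 92828096 and 92828282), and in the 4 wild-type E16 libraries it was inside the gene.

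No library had a peak in either Ptprc window, and 35.0% of all windows were open in no library. The nearest Ptprc peak was a single peak of 86 bp in colon, 1005 bp upstream of the start (chr1:138176310-138176396), and 86 bp is the smallest width in the colon list. In forestomach, hindstomach and E13 stomach the nearest peaks, of 388 bp, 291 bp and 126 bp, lay 4.91 kb, 4.81 kb and 4.89 kb upstream and formed 1 region (138180114 to 138180602). In the KO library, E16 intestine and E13 intestine the nearest peak was 20.7 kb, 41.2 kb and 89.3 kb away.

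The first Ikzf1 promoter was open in the KO library, with 1 peak of 970 bp (chr11:11685388-11686358), in E13 stomach, with peaks of 220 bp and 461 bp, and in E13 intestine, with 1 peak of 193 bp. It had no peak in forestomach, hindstomach, colon or E16 intestine, where the nearest peaks lay between 18.9 kb and 28.4 kb away. The second Ikzf1 window (chr11:11689927-11690226) had no peak in any library. Among all windows, 682 (3.24%) were open in both E13 libraries and the KO library alone, and their median G and C content was 66%. Of the 715 windows open in both E13 libraries and in no wild-type E16 library, 682 (95.4%) had a peak in the KO library. The Ikzf1 promoter is 1 of these 682, and a KO peak is what nearly all windows with its E13 and wild-type E16 pattern had.

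The Cd68 promoter was open at the later age. It had a peak of 185 bp in the KO library, 482 bp in forestomach, 453 bp in hindstomach, 164 bp in colon and 100 bp in E16 intestine, and none in E13 stomach or E13 intestine, where the nearest peak was 3.26 kb and 3.28 kb away. The pattern of all 5 E16 libraries without either E13 library was found in 23 of 21045 windows, 0.109%. Both E13 libraries were YFP-sorted after trypsin and the wild-type E16 libraries were isolated otherwise, so age and isolation cannot be told apart for this site. In 10 draws in which every list was thinned at random to the length of the shortest, the median number of libraries with a peak in the window was 4 for Cd68 and 6 for proximal Runx1, and it did not change for Ikzf1, Ptprc or distal Runx1.

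**Figure D2:**
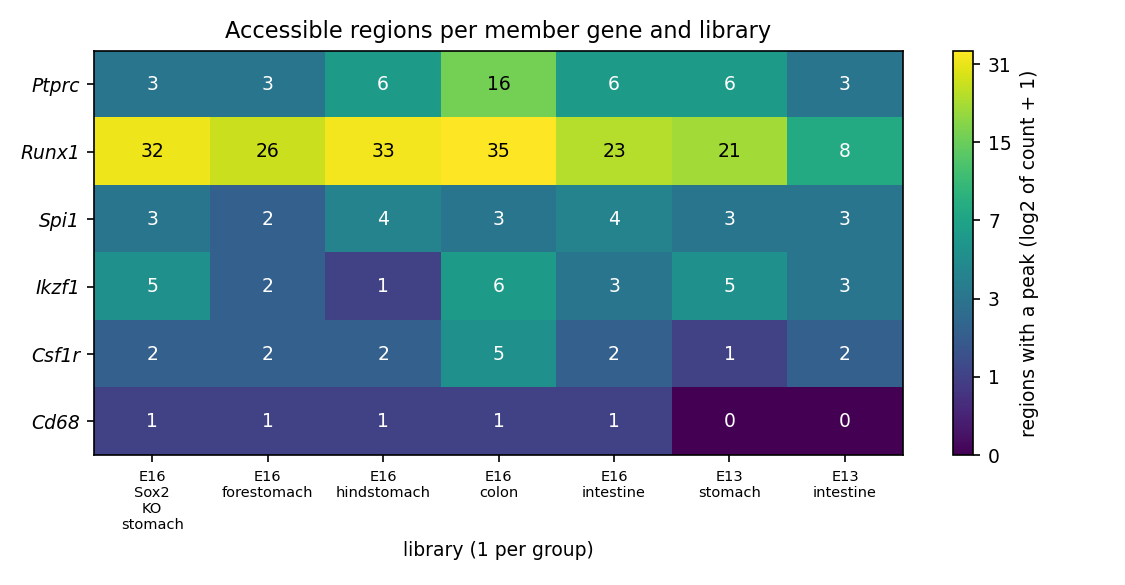
Number of accessible regions of each member gene (rows) in each library (columns, 1 library per group), with the colour on a log2 scale of the count plus 1. Runx1 has between 8 and 35 regions, Ptprc 16 in colon and 3 to 6 elsewhere, and Cd68 1 in each E16 library and 0 at E13.

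Around the whole genes, the 6 members had 46 regions in the KO library, 36 in forestomach, 47 in hindstomach, 66 in colon, 39 in E16 intestine, 36 in E13 stomach and 19 in E13 intestine. Runx1 supplied 83 of the 142 regions. Without it the sums were 14 in the KO library, 10 in forestomach, 14 in hindstomach, 31 in colon, 16 in E16 intestine, 15 in E13 stomach and 11 in E13 intestine. As the lists differ in length, the counts of all 6 were also taken per 100000 regions of the library, which gave 44.2 in the KO library, 42.2 in forestomach, 43.2 in hindstomach, 49.6 in colon, 41.3 in E16 intestine, 39.1 in E13 stomach and 25.4 in E13 intestine. Colon was highest, with an interval of 39.0 to 63.0, and E13 intestine lowest, at 16.3 to 39.7, and the intervals of neighbouring libraries in this order overlapped.

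The member regions resembled other regions in the share inside a gene body and the share found in 1 library. They lay in a gene body in 58.5% of cases, against 58.4% of all regions given to a gene, and 76 of 142 (53.5%) were found in 1 library, against 53.4%. Fewer of them lay at a gene end, within 1 kb of either end of a gene: 6 of 142, 4.23% (1.95 to 8.91), against 10.3% of all. Of the member regions 3 were open in all 7 libraries, 2.11% (0.721 to 6.03), against 5.26%. These are 2 Runx1 regions, at the proximal promoter and 1 upstream of it (92698697 to 92698960), and 1 Spi1 region. A further 4 regions, 2.82% (1.10 to 7.02) against 1.20% of all, were open in all 4 stomach libraries and in none of the 3 intestinal ones, 3 at Runx1 and 1 at Ikzf1. No member region was open in all 3 intestinal libraries without a stomach library, a class of 0.240% of all regions.

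Ptprc, the pan-leukocyte gene (chr1:138062859-138175756), had 3 regions in the KO library, 3 in forestomach, 6 in hindstomach, 16 in colon, 6 in E16 intestine, 6 in E13 stomach and 3 in E13 intestine. Colon stood above the rest, also per list length, at 12.0 per 100000 regions (7.40 to 19.5) against 2.88 to 6.52 in the other 6 libraries, although the colon interval overlaps theirs. Most of its 28 regions lay away from the gene body: 17 beyond its end, 3 upstream of its start and 8 inside. In colon 10 were beyond the gene end, 4 inside and 2 upstream. No Ptprc region was open in all 7 libraries, 0% (0 to 12.1), against 5.26% of all regions given to a gene. The most shared one (138044604 to 138044801) was open in 5.

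Of the 16 colon regions of Ptprc 11 were found in no other library, 68.8% (44.4 to 85.8), against 39.7% of all colon regions given to a gene. They were narrow, between 86 and 164 bp with a median of 108 bp, against a median of 133 bp for the other 5. This holds for colon in general, whose regions in no other library had a median of 101 bp, against 244 bp for its other regions. The colon list was also the longest of the 7.

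**Figure D3:**
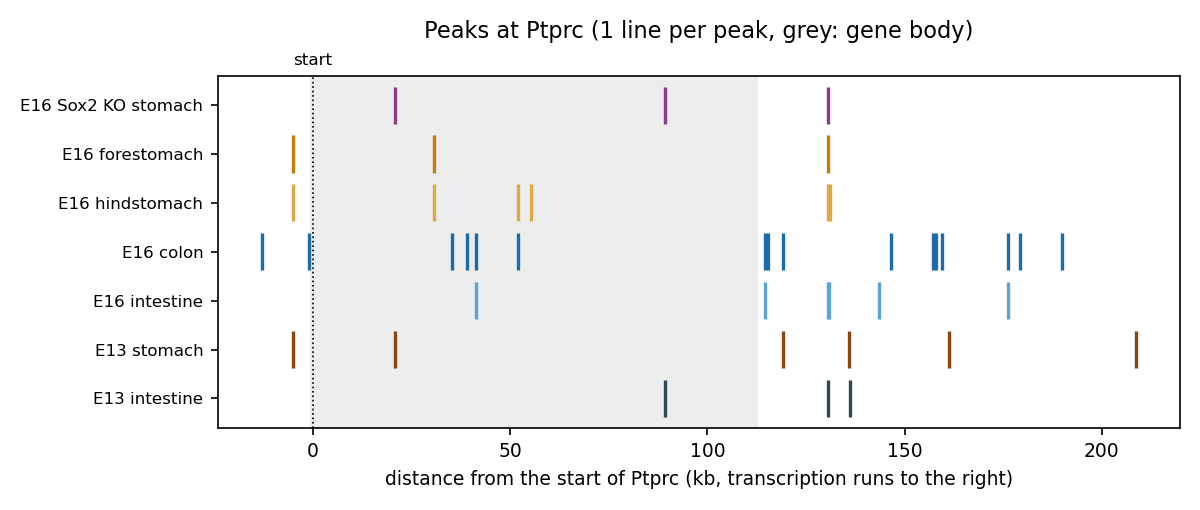
Peaks at Ptprc, 1 line per peak and 1 row per library, against the distance from the start in kb along the gene, with the gene body in grey. Colon has 16 peaks, of which 10 lie beyond the gene end, and no row has a peak at the start.

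Runx1 (chr16:92601466-92826074) had more regions than 99.0% of genes: 32 in the KO library, 26 in forestomach, 33 in hindstomach, 35 in colon, 23 in E16 intestine, 21 in E13 stomach and 8 in E13 intestine. The median gene had 7 over all libraries together, and Runx1 is long (225 kb). Its 83 regions were spread unevenly among its stretches. From the proximal start to the gene end (95.9 kb) there were 34 regions, with 19 in the KO library, 12 in forestomach, 18 in hindstomach, 10 in colon, 8 in E16 intestine, 8 in E13 stomach and 4 in E13 intestine, so the E16 stomach libraries were high there. Between the distal and the proximal start (128.7 kb) there were 24, with 7 in the KO library, 7 in forestomach, 8 in hindstomach, 13 in colon, 9 in E16 intestine, 7 in E13 stomach and 1 in E13 intestine. Colon thus had the highest raw count there. Upstream of the distal start 10 of 17 regions were open in colon, and between 2 and 5 in each other library. The colon list is also the longest, with 133176 regions against 94418 in E16 intestine. These counts by stretch were not scaled to list length.

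Of 34 regions downstream of the proximal start 8 were open in both forestomach and hindstomach and in neither E16 intestine nor colon, against 0 of 24 between the starts and 1 of 17 upstream. Over all regions given to a gene this class made up 6.12%, and over the 83 Runx1 regions 10.8% (5.81 to 19.3). The KO library held 5 of these 9 Runx1 regions, 55.6% (26.7 to 81.1), against 59.9% over all regions of that kind. Runx1 regions open in all 4 stomach libraries and no intestinal one lay at 92645732 to 92646062 and 92662662 to 92662948 inside the gene and at 92903890 to 92904497 upstream of it. The KO library had 12 Runx1 regions found nowhere else, 37.5% of its 32 (22.9 to 54.7) against 27.2% over all its regions, and colon also had 12, 34.3% of its 35 (20.8 to 50.8) against 39.7%. In all, 42 of the 83 Runx1 regions were found in 1 library, 50.6% (40.1 to 61.1), against 53.4% of all regions given to a gene.

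**Figure D4:**
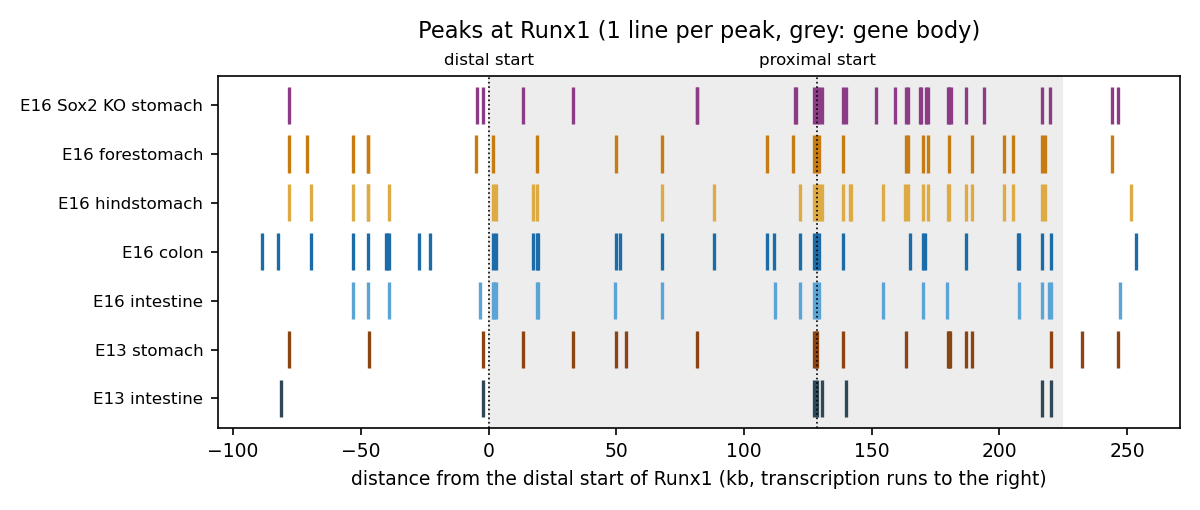
Peaks at Runx1, 1 line per peak and 1 row per library, against the distance from the distal start in kb along the gene, with the gene body in grey and dotted lines at both starts. All 7 rows meet at the proximal start, and the stretch downstream of it holds 19 KO regions and 18 hindstomach regions, against 8 in E16 intestine.

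Spi1 (chr2:91082374-91115759), the myeloid regulator, had 3 regions in the KO library, 2 in forestomach, 4 in hindstomach, 3 in colon, 4 in E16 intestine, 3 in E13 stomach and 3 in E13 intestine. These counts hardly differ. The region shared by all 7 libraries (91115090 to 91115572) lies inside the body within 1 kb of its higher coordinate. A second one inside the body (91101474 to 91101729) was open in all libraries but colon, while one at 91111890 to 91112192 was open in colon and E16 intestine.

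Ikzf1 (chr11:11684962-11772930) had 5 regions in the KO library, 2 in forestomach, 1 in hindstomach, 6 in colon, 3 in E16 intestine, 5 in E13 stomach and 3 in E13 intestine. Of its 17 regions 12 were found in 1 library, 70.6% (46.9 to 86.7), against 53.4% of all regions given to a gene. None was found in all 7, 0% (0 to 18.4), against 5.26% of all. Libraries with like counts thus mostly had different regions, but both intervals include the share over all regions. The region open in the KO library, forestomach, hindstomach and E13 stomach and in none of the intestinal libraries lay 27.4 kb from the gene body (11657092 to 11657550).

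Csf1r (chr18:61105572-61131139), the macrophage growth factor receptor, had 2 regions in the KO library, 2 in forestomach, 2 in hindstomach, 5 in colon, 2 in E16 intestine, 1 in E13 stomach and 2 in E13 intestine. A region inside its body (61127575 to 61127834) was open in all 5 E16 libraries and in neither E13 library, the same libraries as the Cd68 promoter. A region 8.83 kb from the body (61096383 to 61096739) was open in all libraries but E16 intestine. Cd68 (chr11:69664213-69666170) had a single region, the one at its promoter. A Runx1 region inside its body (92696733 to 92696993) was also open in all 5 E16 libraries and neither E13 library. In all, 3 of the 142 member regions were of this class, 2.11% (0.721 to 6.03), against 0.326% of all regions given to a gene. The class is the pattern of the Cd68 promoter and the Csf1r region, which are among the 3, so its share is a description only. The total of Csf1r regions was called in no comparison of E16 with E13.

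A gene was called towards a library where its regions plus 0.5 were at least 2-fold those of the other plus 0.5, with a difference of at least 2 regions. Between colon and E16 intestine, 2 ends of the same tract at the same age isolated with the same EDTA concentration, 2 of the 6 members were called towards colon, against 13.2% of genes, and 0 towards intestine, against 2.97%. These were Ptprc, with 16 regions in colon and 6 in E16 intestine (log2 ratio 1.34), and Csf1r, with 5 regions in colon and 2 in E16 intestine (log2 ratio 1.14). All members together had 66 regions in colon and 39 in E16 intestine, and 75.5% of the unshared ones (62.4 to 85.1) were in colon, against 67.2% of all regions. Both calls end with list length: keeping of each list its widest peaks, to the length of the shortest list, left Ptprc with 8 regions in colon and 4 in E16 intestine, and Csf1r with 1 in colon and 2 in E16 intestine. With random thinning Ptprc had 9 in colon and 5 in E16 intestine, and Csf1r 2 in colon and 1 in E16 intestine. The Ptprc call also ended with genes of any kind as neighbours (8 in colon and 4 in E16 intestine), and the Csf1r call where a library's peaks had to cover 50% of a region (4 in colon and 2 in E16 intestine).

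Between E13 stomach and E13 intestine, which shared sort and digestion, Runx1 was the 1 member called, towards stomach, with 21 regions in E13 stomach and 8 in E13 intestine (log2 ratio 1.34). Of all genes 10.2% were called towards E13 stomach and 3.26% towards E13 intestine. With the widest peaks at equal length the call ended, at 15 regions in E13 stomach and 8 in E13 intestine. Ptprc had 6 in E13 stomach and 3 in E13 intestine, with no region shared. Most regions of any gene were also unshared: over all regions 40658 were in both libraries, 51428 in E13 stomach only and 34142 in E13 intestine only. The members together had 36 in E13 stomach and 19 in E13 intestine. Of their unshared regions 74.3% (57.9 to 85.8) were in stomach, against 60.1% of all regions.

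Between the intestines of both ages, Runx1 had 23 regions in E16 intestine and 8 in E13 intestine (log2 ratio 1.47), 1 member of 6 called towards E16 and 0 towards E13, against 13.2% of genes towards E16 and 5.03% towards E13. This call held under all 8 alternatives. Of the Runx1 regions 4 were shared by both ages, 19 were in E16 intestine only and 4 in E13 intestine only. Over all regions 28277 were shared, 66141 were in E16 intestine only and 46523 in E13 intestine only. All members had 39 regions in E16 intestine and 19 in E13 intestine. In the stomach, Ikzf1 was the 1 member called, towards E13, with 1 region in hindstomach and 5 in E13 stomach (log2 ratio −1.87), against 10% of genes towards hindstomach and 4.3% towards E13 stomach. With genes of any kind as neighbours it had 0 regions in hindstomach and 1 in E13 stomach, and the call ended. All members had 47 regions in hindstomach and 36 in E13 stomach.

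Between hindstomach and E16 intestine, Ikzf1 was called towards intestine, with 1 region in hindstomach and 3 in E16 intestine (log2 ratio −1.22), against 10.3% of genes towards hindstomach and 3.83% towards intestine. With the widest peaks at equal length it had 1 in hindstomach and 2 in E16 intestine, and the call ended. All members had 47 regions in hindstomach and 39 in E16 intestine. Between forestomach and hindstomach 0 of the 6 members were called, against 1.25% of genes towards forestomach and 8.89% towards hindstomach. The sums were 36 in forestomach and 47 in hindstomach (log2 ratio −0.38), a direction that turned to 0.08 when lists were thinned at random.

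The KO library was compared with both wild-type stomach parts, and these comparisons share the KO library. Ikzf1 was called towards the KO library in both. It had 5 regions in the KO library and 1 in hindstomach (log2 ratio 1.87), against 6.41% of genes called towards the KO library and 7.56% towards hindstomach. This call held under all 8 alternatives. With the widest peaks at equal length, and also away from gene ends, Ikzf1 had 3 and 1, the smallest difference the rule allows. Of its 5 KO peaks 2 had the smallest width of the KO list, 71 bp, and 3 of the 5 KO regions were in no other library. It had 5 in the KO library and 2 in forestomach (log2 ratio 1.14), against 14.7% of genes towards the KO library and 4.57% towards forestomach, and this call held under 4 of 8 alternatives. With the widest peaks at equal length the count against forestomach was 3 in the KO library and 2 in forestomach. The 6 members together had 46 regions in the KO library, 47 in hindstomach and 36 in forestomach. Of the 29 member regions open in both wild-type stomach parts the KO library held 17, 58.6% (40.7 to 74.5), against 62.6% of all regions of that kind. Of the 25 member regions that the KO library held outside both stomach parts, 8 were open in E13 stomach (32.0%, against 32.5% of all) and 1 in E16 intestine (4.00%, against 5.60%).

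Beside the members, 86 other blood and immune genes were counted from lists of haematopoietic transcription factors, pan-leukocyte, myeloid, lymphoid and erythroid genes. Between colon and E16 intestine 10 of 79 with a region in either were called towards colon and 4 towards intestine, against 13.2% and 2.97% of all genes, so the count towards colon was near the general share. Of the 10, 6 were among the 16 lymphoid genes. Pax5, a B-cell factor, had 16 regions in colon and 6 in E16 intestine, and Gata3 had 15 in colon and 7 in E16 intestine. Il7r, the receptor for a lymphocyte growth factor, had 5 in colon and 1 in E16 intestine. A further lymphoid gene, 1 of the 16, was called towards intestine. The other blood and immune lists did not share this lean towards colon. Of 11 erythroid genes 0 were called towards colon and 2 towards intestine. Of 19 myeloid genes it was 2 and 1, and of 16 pan-leukocyte genes 1 and 0. Of the 17 haematopoietic transcription factors 1 was called, Gata1, the erythroid regulator, with 2 in colon and 0 in E16 intestine. Outside blood, 4 of 16 mesenchymal, 2 of 15 epithelial, 1 of 11 neural and 0 of 14 endothelial genes were called towards colon. None of them was called towards intestine. At equal list length the 10 blood and immune genes called towards colon became 4 with the widest peaks and 5 with random thinning. This count too thus moved with list length, and the 6 lymphoid calls were not recounted by themselves.

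Between E16 and E13 intestine 22 of 76 were called towards E16 and 3 towards E13, against 13.2% and 5.03% of all genes. They came from each of the lists: 6 of 17 pan-leukocyte genes, such as Itgal, an integrin chain of leukocytes (5 regions in E16 intestine and 0 in E13 intestine), 5 of 18 myeloid genes, such as Csf3r, the granulocyte growth factor receptor (8 in E16 and 1 in E13 intestine), 4 of 11 erythroid genes, such as Sptb, a spectrin of the red cell membrane (11 in E16 and 3 in E13 intestine), 4 of 17 transcription factors, such as Irf8 of the myeloid line (12 in E16 and 4 in E13 intestine), and 3 of 13 lymphoid genes. Of 15 epithelial genes 3 were called towards E16 and 1 towards E13. Between hindstomach and E13 stomach 15 of 78 were called towards hindstomach and 1 towards E13 stomach, against 10% and 4.3% of all genes. Sptb had 12 in hindstomach and 4 in E13 stomach. Plek, a platelet and leukocyte protein, had 5 in hindstomach and 1 in E13 stomach. Neither count by age was repeated at equal list length, and E13 intestine had the shortest list. Age and isolation cannot be told apart in them. Promoter windows did not share the direction in intestine. Of 63 of these genes with a window, 4 had a peak there in E16 intestine and 6 in E13 intestine.

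Between stomach and intestine, 10 of 81 were called towards hindstomach and 3 towards E16 intestine, against 10.3% and 3.83% of all genes, with the factor Etv6 at 22 regions in hindstomach and 9 in E16 intestine. At E13 it was 11 of 75 towards stomach and 2 towards intestine, against 10.2% and 3.26% of all genes, with Laptm5, a lysosomal protein of blood cells, at 5 in E13 stomach and 1 in E13 intestine. Between forestomach and hindstomach 2 of 75 were called towards forestomach and 9 towards hindstomach, against 1.25% and 8.89% of all genes, among them Vav1, a signalling protein of blood cells, with 3 in forestomach and 8 in hindstomach. The KO library had 4 of 81 called towards it and 9 towards hindstomach, against 6.41% and 7.56% of all genes, such as the macrophage gene Adgre1 (0 in the KO library and 3 in hindstomach). It had 8 of 77 called towards it and 2 towards forestomach, against 14.7% and 4.57% of all genes, such as the lymphoid factor Tcf7 (8 in the KO library and 3 in forestomach).

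Promoters gave a different order of libraries than region counts. Of 63 of these genes with a promoter window, 19 (30.2%) had a peak there in the KO library, 7 (11.1%) in forestomach, 9 (14.3%) in hindstomach, 6 (9.52%) in colon, 4 (6.35%) in E16 intestine, 13 (20.6%) in E13 stomach and 6 (9.52%) in E13 intestine. In every library this was below the share over all genes. That share was 64.3% in the KO library, 59.9% in E13 stomach, 56.6% in E13 intestine and 54.1% in hindstomach. It was 50.4% in forestomach, 47.3% in E16 intestine and 43.4% in colon. The KO library and E13 stomach were highest over all genes too. In proportion, the KO library stood further above hindstomach among these genes (30.2% against 14.3%) than over all genes (64.3% against 54.1%). The intervals among these genes overlap (20.2 to 42.4 in the KO library and 7.70 to 25.0 in hindstomach). E13 intestine, below E13 stomach over all genes (56.6%), was level with colon here (9.52%). The cause of these differences was not tested. The 19 in the KO library included the leukocyte genes Coro1a and Arhgdib, and Hba-a1, a globin chain. These were also open in E13 stomach, and Coro1a in forestomach as well. Tcf7 and Tbx21, the 2 lymphoid promoters of 14 open in any library, were among the 19 too. Promoters of mesenchymal genes were also open in the KO library, 5 of 10 such as Twist1 and Col1a2, against 0 of 10 in each of the 4 wild-type E16 libraries, 3 in E13 stomach and 2 in E13 intestine. So were those of 6 of 7 neural genes in the KO library, against 3 in forestomach, 3 in hindstomach, 0 in colon, 2 in E16 intestine, 5 in E13 stomach and 4 in E13 intestine. Of 9 endothelial promoters 3 were open in the KO library, 1 each in forestomach, hindstomach, colon and E13 stomach, 0 in E16 intestine and 3 in E13 intestine. The part of other cell types in the open Ikzf1 promoter of the KO library was not tested.

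**Figure D5:**
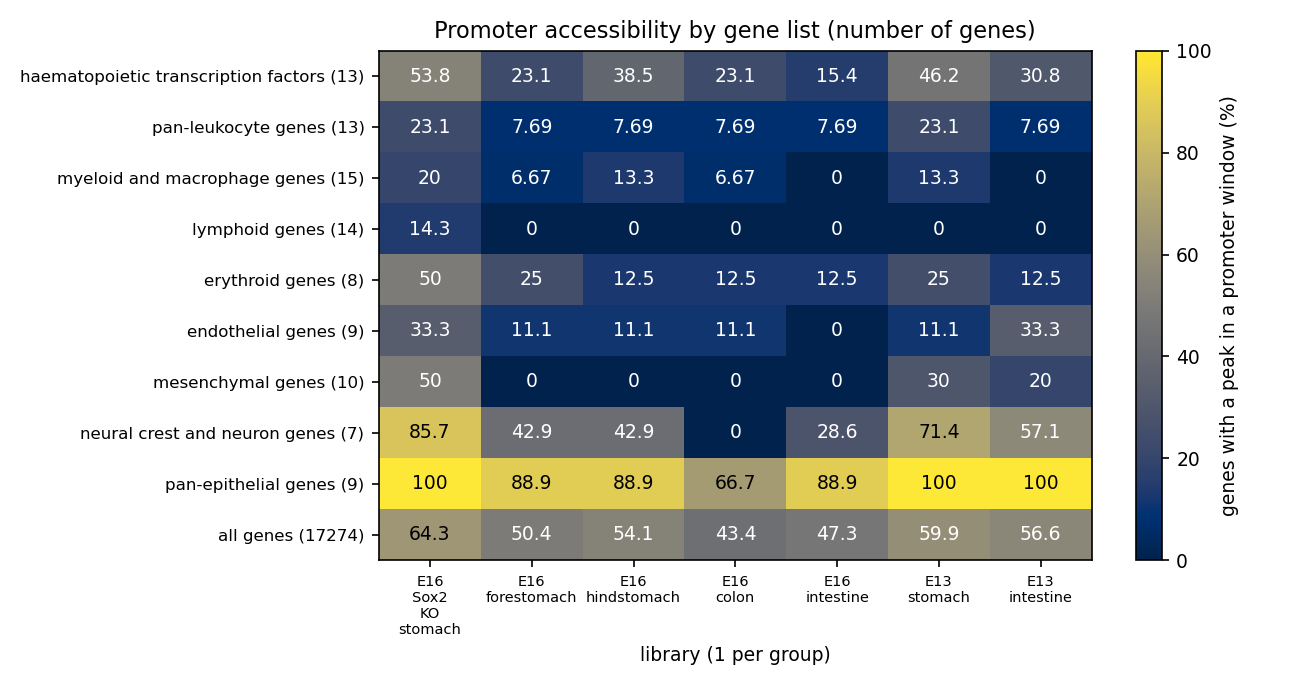
Percent of the genes of each list that have a peak in a promoter window, by library (columns, 1 library per group), with the number of genes with a window in brackets. Blood and immune rows are low in most columns. The transcription factor (53.8%), erythroid (50%), myeloid (20%) and lymphoid (14.3%) rows are highest in the KO column. The pan-leukocyte row is highest in the KO and E13 stomach columns (23.1% in each). The row of all genes runs between 43.4% and 64.3% and is highest in the KO column too.

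Genes whose region counts over the 7 libraries were most like those of a member were sought among 8266 genes with at least 10 regions, by Pearson's r of log2 counts plus 0.5. For Ptprc these were Pogz (r 1.00), Ifng (0.987) and Ppfia2 (0.984). Pogz had 6 regions in colon and between 3 and 4 in each other library. Ifng had 17 in colon and between 5 and 8 in each other library. Ppfia2 had 22 in colon and between 9 and 14 in each other library. For Runx1 they were Tmem131 (0.997), Cstf3 (0.997) and Mfsd6 (0.996), and for Ikzf1 Gjd4 (0.969), Bambi (0.967) and Ccdc85a (0.962). Each r rests on 7 points, which differ in list length for every gene, and is a description.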

How the data were processed

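The 7 libraries, 1 per group, are ATAC-seq of mouse embryonic gut. For trimming, alignment and peaks there are tool names in the submitters' processing notes (cutadapt, Bowtie2 and MACS2) and a build (GRCm38/mm10); no versions, thresholds or pooling are stated there. The deposited values are of another kind than counts or signal: chromosome, start and end of each peak, with no height, score or p-value. Positions are printed as deposited, since their base (0 or 1) is not stated.

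Peaks on the 19 autosomes and X were merged (1 bp overlap), and a region counted for a library with a peak in it. Each region went to the protein-coding gene whose body lay closest, up to 100 kb away (RefSeq, GRCm38.p6), 81.0% of regions in all. Promoter windows came from RefSeq. Comparisons use a pseudocount of 0.5, a 2-fold threshold and a difference of at least 2 regions; no test was run, as no group has replicates. Intervals are 95% Wilson intervals. The counting was tested on simulated data. Alternatives were at least 50% of a region covered, 10 kb in place of 100 kb, genes of any kind, tied genes, regions away from gene ends, a pseudocount of 1, and lists brought to equal length by width or at random (10 draws). Named genes are the members, per comparison up to 3 called genes of each list with the largest difference, and the 3 genes most like a member; of which some are printed. The members and lists were chosen with earlier results of these data known. Python 3.11.15, numpy 2.4.6, pandas 2.3.3, scipy 1.17.1 and matplotlib 3.10.9 were used.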

Additional observations from a re-analysis of the deposited data

Results flagged for a closer look

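Ikzf1 differed in direction between the E13 pair and the E16 hindstomach and intestine pair: E13 stomach had 2 regions more than E13 intestine (5 and 3), and at E16 the difference of hindstomach minus intestine was -2 (1 and 3). Each value rests on 1 library per group, and the difference was not tested. Of the other E16 stomach libraries, the KO library had 5 Ikzf1 regions, above E16 intestine as at E13, and forestomach had 2. Age and isolation cannot be told apart in it.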

How the results depend on the processing

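The sum of member regions, the share found in 1 library and 6 of the 8 comparisons of member sums moved by less than the 1.5-fold or interval limits under every alternative run. Bringing the lists to equal length changed the rest. For colon against E16 intestine, the log2 ratio of member sums was 0.75, against 0.27 with lists thinned at random. For forestomach against hindstomach it was −0.38, against 0 with the widest peaks and 0.084, the opposite direction, with thinned lists. The other blood and immune genes called towards colon numbered 10, against 4 with the widest peaks and 5 with thinned lists. Their counts in the other comparisons were not repeated under the alternatives. Csf1r turned from a log2 ratio of 1.14 in colon over E16 intestine to −0.74 with the widest peaks. Equal length takes more peaks from colon than from E16 intestine and more from hindstomach than from forestomach; other causes were not tested. Calls of single members held under 8 of 8 alternatives for Runx1 in E16 over E13 intestine and for Ikzf1 in the KO library over hindstomach, under 7 for the calls of Ikzf1 in hindstomach against E13 stomach and against E16 intestine and of Runx1 in E13 stomach, under 5 for Ptprc and Csf1r in colon, and under 4 for Ikzf1 in the KO library over forestomach. No paired analysis was possible because each group has 1 library. Depth is unknown, so a peak that a list lacks is not shown to be absent from the cells.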
